A study of Homo sapiens with 4 samples.

Results

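The 10 genes described here carry out and time the exit from mitosis: the APC/C activators CDC20 and FZR1, the APC/C inhibitor FBXO5, the ubiquitin-conjugating enzymes UBE2C and UBE2S, securin (PTTG1), separase (ESPL1), and the cytokinesis proteins ANLN, PRC1 and ECT2. They were taken by symbol from a list of genes with known functions in mitotic exit, chosen with earlier results of these data known. All 10 were found among the 23444 entries of the deposited gene tables, each as 1 entry. U87-MG cells, a long-established line from a human glioblastoma, gave 2 RNA libraries with a short hairpin RNA against MAGED2 (shMAGED2) and 2 with a negative control hairpin (shCON). The series design describes the MAGED2 knockdown as stable. The treatment protocol in the labels instead names hairpins against ZDHHC15, a transient lipid transfection and a harvest after 36 h, and this was not resolved. All 4 libraries came from the same cell line and medium, and neither the number of hairpin sequences nor whether the cells were a clone or a pool is stated.

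The anaphase-promoting complex, or APC/C, is a ubiquitin ligase that marks securin and the mitotic cyclins for destruction. CDC20 switches it on at the start of anaphase, once the spindle checkpoint is satisfied, and FZR1 takes over in late mitosis and in the following gap phase. Loss of securin frees separase, which cuts the cohesin rings that hold sister chromatids together, and the central spindle then directs a ring of actin and myosin that divides the cell. Transcripts of many of these genes are known to rise towards mitosis, through promoters with a cell cycle homology region (CHR), which the MuvB complex binds, and CCAAT boxes, which NF-Y binds.

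MAGED2 itself, the targeted gene, had 526 and 795 counts in the shMAGED2 libraries, against 6090 and 5225 in the shCON libraries, and fell by 3.16 on the log2 scale (edgeR quasi-likelihood, Benjamini-Hochberg adjusted p = 0.000654). ZDHHC15 had 0 counts in all 4 libraries, where 3 counts would be 0.0828 to 0.105 CPM, the counts scaled to a common library total. These 2 limits use the raw totals, whereas all other CPM here use totals adjusted as given under processing. Total counts were 31160205 and 36234336 in shMAGED2 replicates 1 and 2, and 34235565 and 28673774 in shCON replicates 1 and 2. The shMAGED2 libraries differed more from each other, by a median of 0.25 on the log2 CPM scale over tested genes, than the shCON libraries did, at 0.11. Mitochondrially encoded genes took 10.1% of the counts in shMAGED2 replicate 1, 4.88% in shMAGED2 replicate 2, and 3.92% and 3.90% in shCON replicates 1 and 2. With these genes removed, an alternative chosen after seeing the data, 3691 genes were called against 3649 with them, and all 10 members passed as higher in both fits. Nothing in the labels says that replicates were separate cultures, so p-values measure the spread between these libraries, which may be technical. Of the glioma line markers, the mesenchymal VIM was high in both groups, at 8189.6 ± 866 CPM in shMAGED2 and 7751 ± 175 CPM in shCON (SD, n = 2 each), whereas the glial genes GFAP (1.17 CPM in shMAGED2 and 2.65 in shCON on average), OLIG2 (1.99 in shMAGED2 and 5.46 in shCON), S100B (0.041 in shMAGED2 and 0.252 in shCON) and SOX2 (0.061 in shMAGED2 and 0.057 in shCON) were low or near 0. Of the 8 such markers tested, 1 rose (NES, 19.0 ± 0.39 CPM in shMAGED2 and 5.19 ± 0.66 CPM in shCON) and 2 fell, OLIG2 by 1.45 and CHI3L1 by 0.45 on the log2 scale (edgeR adjusted p = 0.0158 and 0.0447), and both lower calls ended without either shCON library. Over all genes tested, 12.3% were higher and 11.6% lower. The number of glioma line markers called higher was 3 by DESeq2 and without a count filter. It was 2 by limma on counts and with mitochondrially encoded genes removed, and 2 were lower in each of these fits. Of 14 markers of other cell types, CD68 was the only one above 2 CPM on average in either group (491 ± 157 CPM in shMAGED2 and 460.5 ± 4.21 CPM in shCON), and CDH1, KRT5 and MOG had 0 counts in all libraries. By edgeR 0 of the 9 of these with enough counts passed in either direction, 1 had an unadjusted p under 0.05, and DESeq2 called 1 lower. The smallest p-values were those of VWF (0.32 ± 0.07 CPM in shMAGED2 and 1.62 ± 0.95 CPM in shCON), MLANA (0.85 ± 0.19 CPM in shMAGED2 and 0.37 ± 0.0018 CPM in shCON) and PECAM1 (1.52 ± 0.92 CPM in shMAGED2 and 0.29 ± 0.41 CPM in shCON; SD, n = 2 each). The summed level of these 14 was 609 and 385 CPM in shMAGED2 replicates 1 and 2 and 468 and 464 CPM in shCON replicates 1 and 2.

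The promoter letters of 6 members are shown, FZR1, which moved least, beside 5 that moved more. These 6 were picked with their values in view, and whether motifs go with the size of a change was not tested. The stretch of FBXO5 is that of its second RefSeq start. The members without letters printed here lie, in GENCODE release 29 on hg38, at chr20:45812576-45816957 (UBE2C, plus strand), chr19:55399745-55407777 (UBE2S, minus strand), chr5:160421822-160428744 (PTTG1, plus strand) and chr3:172750682-172821474 (ECT2, plus strand). RefSeq start windows (250 bases before to 50 after a start, GRCh38.p14) were available for 9 of the 10 members, with 13 windows in all. UBE2C had none. Each stretch runs 5′ to 3′ from 150 bases before to 30 after the RefSeq start on the gene's strand, and capitals mark CHR letters (TTTGAA or TTCGAA) and CCAAT boxes (CCAAT) on either strand.
CDC20, chr1:43358831-43359010, plus strand: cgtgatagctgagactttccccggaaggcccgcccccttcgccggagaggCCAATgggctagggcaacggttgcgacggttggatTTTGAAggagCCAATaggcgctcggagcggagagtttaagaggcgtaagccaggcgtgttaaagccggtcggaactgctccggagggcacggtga
FBXO5, chr6:152983012-152983191, minus strand: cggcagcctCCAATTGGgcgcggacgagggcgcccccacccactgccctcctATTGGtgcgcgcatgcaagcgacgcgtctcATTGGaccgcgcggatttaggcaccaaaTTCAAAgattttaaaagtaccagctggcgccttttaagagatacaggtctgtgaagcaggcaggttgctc
ESPL1, chr12:53268149-53268328, plus strand: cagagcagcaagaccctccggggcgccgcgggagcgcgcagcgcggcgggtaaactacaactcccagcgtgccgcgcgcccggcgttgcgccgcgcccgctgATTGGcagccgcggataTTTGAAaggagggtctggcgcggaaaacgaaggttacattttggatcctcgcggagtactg
ANLN, chr7:36389712-36389891, plus strand: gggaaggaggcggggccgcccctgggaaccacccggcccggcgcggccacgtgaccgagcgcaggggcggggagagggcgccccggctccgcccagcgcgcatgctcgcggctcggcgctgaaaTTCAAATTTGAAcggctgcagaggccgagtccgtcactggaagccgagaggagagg
PRC1, chr15:90994506-90994685, minus strand: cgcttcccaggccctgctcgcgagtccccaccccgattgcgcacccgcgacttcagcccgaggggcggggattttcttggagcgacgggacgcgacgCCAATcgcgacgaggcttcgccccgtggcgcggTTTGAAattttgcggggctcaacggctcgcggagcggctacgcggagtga
FZR1, chr19:3506161-3506340, plus strand: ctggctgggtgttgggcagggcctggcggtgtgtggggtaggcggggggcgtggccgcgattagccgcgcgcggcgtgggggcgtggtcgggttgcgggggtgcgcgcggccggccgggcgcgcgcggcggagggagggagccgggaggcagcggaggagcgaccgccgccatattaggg

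CHR letters stood in a start window of 7 of 9 members (ANLN, CDC20, ECT2, ESPL1, FBXO5, FZR1 and PRC1), against 19.5% of the 27305 genes in the same RefSeq table. Matches began at −65 and −178 in CDC20, at −31 in ESPL1, at −20 in PRC1 and at −40 from the second of 2 starts of FBXO5. The window of the first FBXO5 start held neither CHR letters nor a CCAAT box. ANLN held 2 adjoining matches on opposite strands, from −26 to −15. In FZR1 the match began at −226, outside the stretch printed above, and no CCAAT box lay in either of its 2 windows. CCAAT boxes stood in windows of 7 members (CDC20, ECT2, ESPL1, FBXO5, PRC1, PTTG1 and UBE2S), against 39.7% of all genes. PTTG1 and UBE2S, which rose by 1.41 and 0.92 on the log2 scale, had CCAAT boxes without CHR letters. Both motifs shared a window in 5 members, CDC20, ECT2, ESPL1, FBXO5 and PRC1, against 7.85% of genes. E2F-type letters (TTCCCGC or TTGGCGC, either strand) were found in ECT2 and FZR1, against 11.0% of genes, and the match in ECT2 overlapped one of its CCAAT boxes. A match is a description of letters, not a binding site, and no binding was measured.

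**Figure D1:**
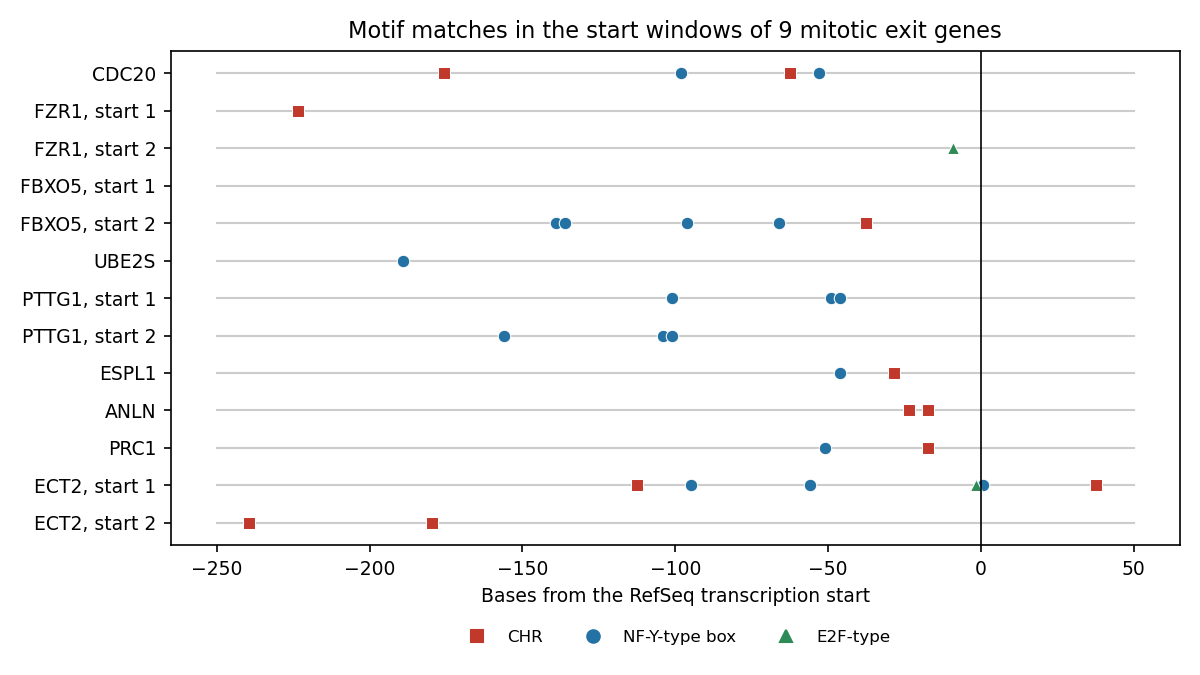
Positions of motif matches, in bases from the RefSeq transcription start, in the 13 start windows of 9 members; squares are CHR letters, circles CCAAT boxes (labelled NF-Y-type box) and triangles E2F-type letters. CHR letters lie within 65 bases before a start in CDC20, FBXO5, ESPL1, ANLN and PRC1, and at −226 in FZR1. In ECT2 they begin at −115 and 35 from the first start and at −242 and −182 from the second. PTTG1 and UBE2S have none.

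All 10 genes were higher after MAGED2 knockdown, by 1.40-fold (FZR1) to 3.49-fold (ANLN). The 10 passed the edgeR quasi-likelihood test at a Benjamini-Hochberg adjusted p of 0.05 over 15293 genes, and 0 were lower, where 23.9% of all genes tested changed, 12.3% being higher and 11.6% lower. For all 10, both shMAGED2 libraries also lay above both shCON libraries, as they did for 33.0% of all genes, while for another 33.0% they lay below. At least 2-fold rises were found for 8 of the 10, against 4.43% of all genes. The median log2 change of the members was 1.47, and that of all genes tested was 0.0028. Because the members were chosen with earlier results of these data known, these contrasts with all genes are descriptive only. Their CPM summed to 1330.1 and 1315 in shMAGED2 replicates 1 and 2, and to 518 and 499 in shCON replicates 1 and 2. In bulk RNA, a larger share of dividing cells, a larger share of cells in mitosis and more RNA of these genes per cell cannot be told apart.

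CDC20, the activator that carries the APC/C through the metaphase to anaphase step, had 106 and 129 CPM in shMAGED2 replicates 1 and 2, against 36.1 and 34.1 CPM in shCON replicates 1 and 2. Both knockdown libraries lay near 3 times the controls or above, and the log2 change was 1.74 (SE 0.13, adjusted p = 0.00114). FZR1, the activator of late mitosis and of the next gap phase, had 69.3 and 73.5 CPM in shMAGED2 and 52.9 and 49.1 CPM in shCON. These groups lay apart but close, with a log2 change of 0.49 (SE 0.11, adjusted p = 0.0246), and this was the only member whose call ended in an alternative fit. Without shCON replicate 1 or 2 its adjusted p was 0.186 and 0.286, scaling by library size alone gave 0.0509, and limma on the deposited FPKM values (fragments relative to transcript length and depth) gave 0.0773 to 0.118, with log2 changes of 0.39 to 0.54 in all of these. MFSD12 on the opposite strand shares 70 exon bases (1.21%) with FZR1 and itself had 140.0 ± 7.99 CPM in shMAGED2 and 109 ± 2.91 CPM in shCON (SD, n = 2 each). Opposite-strand genes also share exon bases with FBXO5 (AL080276.2, 157 bases, 4.1%), PRC1 (PRC1-AS1, 406 bases, 7.35%) and ANLN (KIAA0895, 78 bases, 1.3%). AL080276.2 and PRC1-AS1 have no entry of their own. Whether the counting used strand is not given. The FPKM ratio of CDC20 to FZR1 was 4.74 and 5.36 in the shMAGED2 libraries and 2.09 in each shCON library, a 2.41-fold difference in a ratio that does not depend on library scaling. An exact permutation test over the 4 libraries gave p = 0.333, two-sided, the smallest that 2 against 2 allows.

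FBXO5, also called EMI1, blocks the APC/C until the cell enters mitosis. It had 63.8 and 52.8 CPM in shMAGED2, against 21.8 and 24.0 CPM in shCON, with no overlap. The log2 change was 1.35 (SE 0.14, adjusted p = 0.00261). Relative to FZR1, FBXO5 stood at 2.32 and 1.78 in FPKM in shMAGED2 replicates 1 and 2 and at 1.01 and 1.17 in shCON replicates 1 and 2, a 1.88-fold difference (exact permutation p = 0.333, two-sided). Both ratios to FZR1 were higher in each shMAGED2 library than in either shCON library, and with 2 libraries a group neither could pass a threshold.

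UBE2C, which places the first ubiquitins on APC/C substrates, had 127 and 106 CPM in shMAGED2 and 37.6 and 33.3 CPM in shCON (log2 change 1.72, SE 0.13, adjusted p = 0.0012). UBE2S, which lengthens the chains that UBE2C begins, had 172 and 202 CPM in shMAGED2 and 99.4 and 98.3 CPM in shCON (log2 change 0.92, SE 0.11, adjusted p = 0.004). Both enzymes were clearly separated between groups, and the shCON libraries of UBE2S were nearly equal. The FPKM ratio of UBE2C to UBE2S was 2.17 and 1.55 in the shMAGED2 libraries, against 1.11 and 1.00 in the shCON libraries, so the 2 transcripts stood at about equal levels per length in control cells and apart in knockdown cells (exact permutation p = 0.333, two-sided). GENCODE release 29 lists 4 processed pseudogenes of UBE2C, 2 of UBE2S and 1 of CDC20. None has an entry in the count table, and how reads matching such copies were assigned is not given, which makes these values uncertain.

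Securin, the product of PTTG1, holds separase inactive until anaphase. PTTG1 had 66.4 and 79.6 CPM in shMAGED2, against 31.5 and 23.3 CPM in shCON, and its shCON pair was the most uneven of any member, at −0.43 on the log2 scale for replicate 2 minus replicate 1. Its rise was 1.41 on that scale (SE 0.18, adjusted p = 0.00492). The lowest count behind these values, 684 in shCON replicate 2, has an exact 95% Poisson interval of 634 to 737 for counting error, so the gap to replicate 1 exceeds counting error. PTTG2, an intronless relative, had 0 counts in all libraries, and the processed copy PTTG3P has no entry. ESPL1, the protease separase itself, had 60.0 and 75.1 CPM in shMAGED2 and 24.1 and 22.7 CPM in shCON, so that both knockdown libraries were more than 2 times either control (log2 change 1.53, SE 0.15, adjusted p = 0.002). The securin to separase ratio overlapped between groups: PTTG1 to ESPL1 in FPKM was 8.90 and 8.29 in shMAGED2 replicates 1 and 2, within the 10.6 and 8.28 of shCON replicates 1 and 2 (log2 difference −0.13, exact permutation p = 1, two-sided). That difference was 0.053 without shCON replicate 1 and −0.30 without shCON replicate 2.

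ANLN, or anillin, the scaffold that ties actin, myosin and septins together in the contractile ring, had the largest rise of the 10, with 335 and 301 CPM in shMAGED2 and 88.4 and 93.6 CPM in shCON. Its log2 change was 1.80 (SE 0.10, adjusted p = 0.00077), and 98.2% of tested genes had a smaller change. PRC1, which bundles the overlapping microtubules of the central spindle, had 169 and 142 CPM in shMAGED2, against 52.3 and 54.5 CPM in shCON (log2 change 1.54, SE 0.12, adjusted p = 0.0012). The gene model AC068831.7 shares 57.6% of the exon bases of PRC1 on the same strand and has its own entry, with 1759 and 2446 counts in shMAGED2 and 696 and 609 in shCON. Reads could therefore have been split between both entries, and with their counts summed, a further alternative chosen after seeing the data, the log2 change was 1.57 (SE 0.10, adjusted p = 0.000808). ECT2, the exchange factor that activates the GTPase RHOA at the division plane, had 161 and 155 CPM in shMAGED2 and 74.4 and 65.7 CPM in shCON. Its rise of 1.17 on the log2 scale (SE 0.11, adjusted p = 0.00167) was the smallest of the 3 cytokinesis genes.

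**Figure D2:**
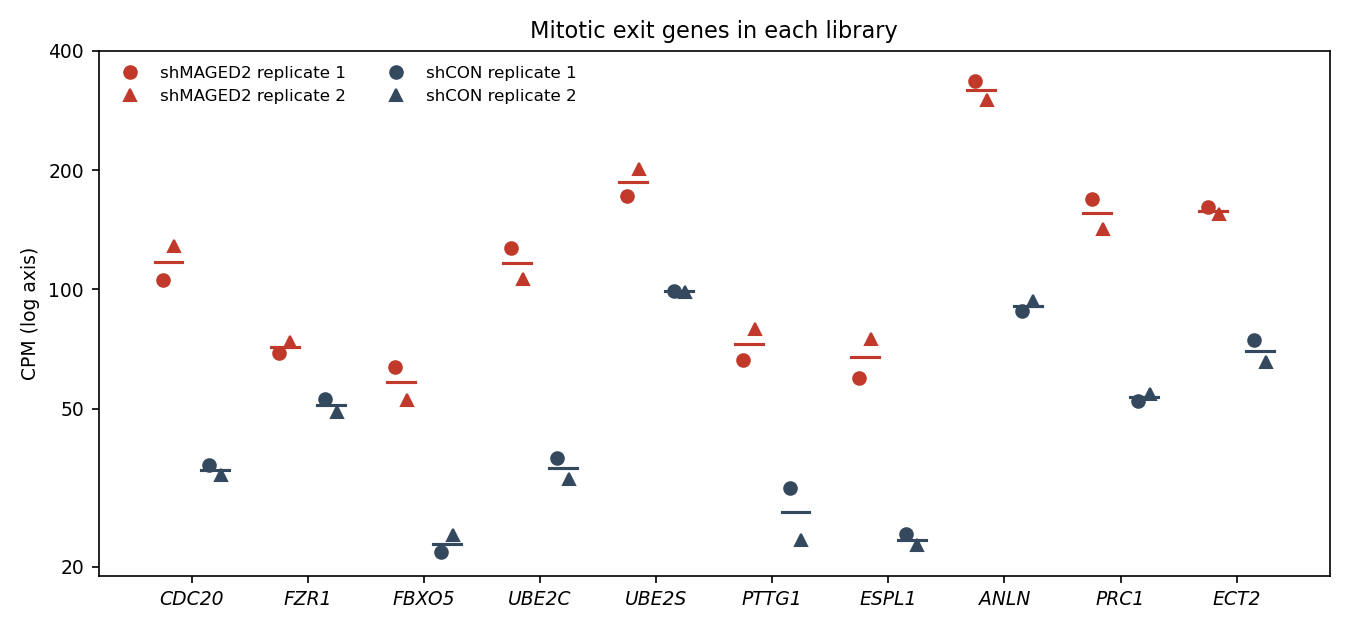
CPM of the 10 genes in each library on a log axis, shMAGED2 (red) left of shCON (dark blue), with circles for replicate 1, triangles for replicate 2 and bars for the group mean. Both shMAGED2 points lie above both shCON points for every gene, and the gap is narrowest for FZR1 (69.3 and 73.5 CPM in shMAGED2 against 52.9 and 49.1 CPM in shCON).

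The 2 shMAGED2 libraries did not order the genes alike. CDC20, FZR1, UBE2S, PTTG1 and ESPL1 were higher in shMAGED2 replicate 2 than in replicate 1, by 0.09 to 0.33 on the log2 scale. FBXO5, UBE2C, ANLN, PRC1 and ECT2 were lower in shMAGED2 replicate 2, by −0.06 to −0.27. With 1 library left out, the log2 changes of the 9 members other than FZR1 ran from 0.80 (UBE2S) to 1.88 (ANLN). Those of FZR1 ran from 0.43 to 0.54. These ranges include the fit without shMAGED2 replicate 1, the library with the high mitochondrial share. Calls in such fits are not compared here, because their number over all genes tested changed strongly with the library left out.

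**Figure D3:**
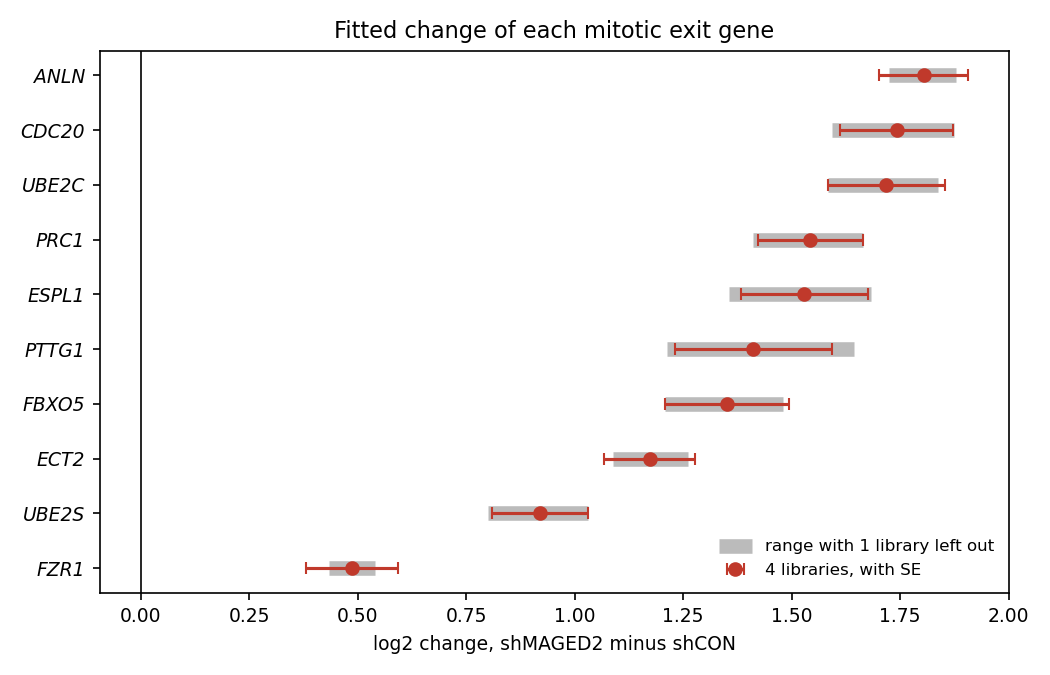
Log2 change, shMAGED2 minus shCON, for each of the 10 genes; points and whiskers are the edgeR estimate and its SE over 4 libraries, and grey bands the range over the 4 fits with 1 library left out. Changes run from 0.49 for FZR1 to 1.80 for ANLN, and no band reaches 0.

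Per length, UBE2C had the highest level of the 10 in both groups and ESPL1 the lowest, at 129 ± 9.91 and 9.75 ± 1.98 FPKM in shMAGED2 and 40.6 ± 3.77 and 3.52 ± 0.14 FPKM in shCON (SD, n = 2 each). In shMAGED2 cells the order after UBE2C was PTTG1 (83.3 FPKM on average), UBE2S (71.1), CDC20 (66.0), ANLN (64.0), PRC1 (41.7), ECT2 (36.4), FBXO5 (26.4) and FZR1 (13.0), and of neighbours the ranges of PTTG1 and UBE2S, UBE2S and CDC20, and CDC20 and ANLN overlapped. The range of PTTG1 (74.3 to 92.4) also overlapped that of CDC20 (57.5 to 74.6), and that of UBE2S (63.0 to 79.2) held that of ANLN (63.3 to 64.7). Within shMAGED2 replicate 1, 7 of the 10 members kept their place in this order. In shCON cells it was UBE2S (38.4), PTTG1 (33.3), CDC20 (20.3), ANLN (19.0), ECT2 (17.0), PRC1 (14.6), FBXO5 (10.5) and FZR1 (9.72), and the ranges of UBE2C, UBE2S and PTTG1 overlapped from one to the next. PRC1 and ECT2 stood in opposite order in the 2 groups by their own entries, but AC068831.7, which may hold part of the PRC1 reads, had 9.41 ± 1.26 FPKM in shMAGED2 and 3.31 ± 0.24 FPKM in shCON (SD, n = 2 each), so the order of PRC1 and ECT2 in shCON is uncertain. Counts divided by FPKM and library total gave nearly the same effective length for a gene in all 4 libraries (coefficient of variation 0.34% for ESPL1 to 2.62% for PRC1), so FPKM and CPM carried the same differences up to library scaling.

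**Figure D4:**
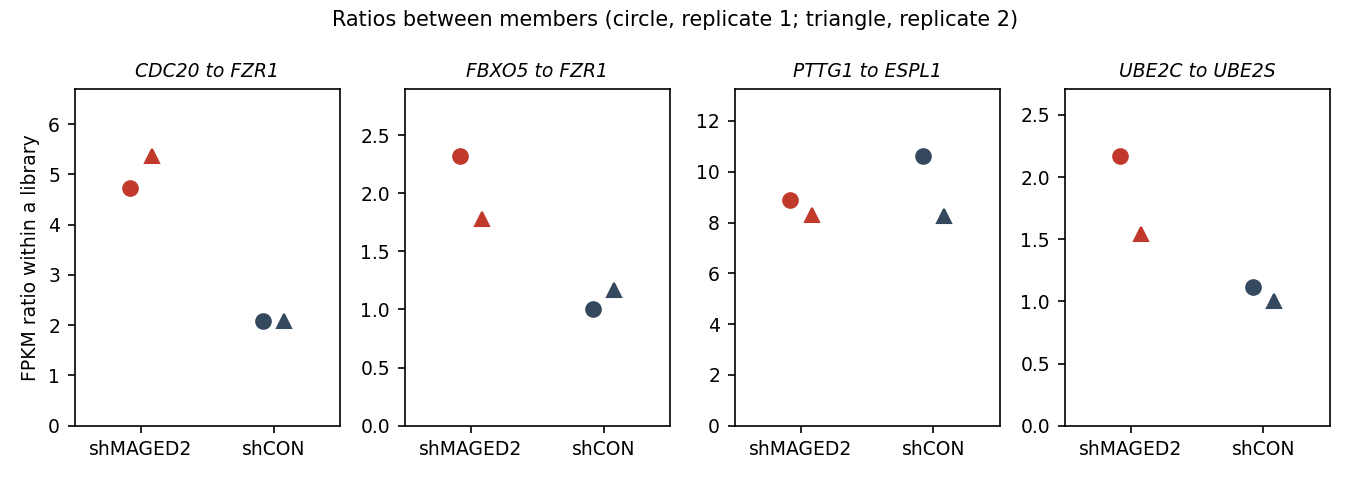
Ratio of the FPKM of 2 members within each library, with shMAGED2 libraries (red) left of shCON libraries (dark blue), circles for replicate 1 and triangles for replicate 2, axes from 0. CDC20 to FZR1, FBXO5 to FZR1 and UBE2C to UBE2S are higher in both shMAGED2 libraries, and PTTG1 to ESPL1 is 8.90 and 8.29 in shMAGED2 against 10.6 and 8.28 in shCON.

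Of the 14 core subunits of the APC/C itself, the ligase that these genes steer, 5 rose, 1 fell and 8 did not pass, with a median log2 change of 0.20. The shares to set beside this and the list counts below are those of all genes tested, 12.3% higher and 11.6% lower. ANAPC7, a subunit of the arm that binds activators, had 70.4 ± 5.16 CPM in shMAGED2 and 41.8 ± 1.42 CPM in shCON (SD, n = 2 each; log2 change 0.75, adjusted p = 0.00754), and the scaffold subunit ANAPC1 rose by 0.49 (adjusted p = 0.0166). ANAPC16 fell by 0.69 on the log2 scale (adjusted p = 0.0263). With library size scaling alone or in limma on filtered FPKM, 3 rose. ANAPC1 missed the threshold in limma on FPKM, filtered or not (adjusted p = 0.0538 to 0.0742). On unfiltered FPKM limma also left ANAPC7 and ANAPC16 short of it (adjusted p = 0.0503 and 0.0865). Without shCON replicate 1 or 2, the log2 changes were 0.72 and 0.79 for ANAPC7 and 0.44 and 0.54 for ANAPC1. Those of ANAPC16 were −0.74 and −0.65. Core subunits thus changed little beside CDC20 and UBE2C. How many of them passed depended on the library left out, as it did over all genes tested, so this is not particular to them.

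Genes of the spindle checkpoint, which restrains CDC20 while kinetochores are unattached, rose in 6 of 8 cases, and 0 fell (median 1.35). BUB1, a checkpoint kinase, had 138 ± 12.6 CPM in shMAGED2 and 38.6 ± 2.81 CPM in shCON, TRIP13, an ATPase that takes the checkpoint complex apart, 79.9 ± 1.62 CPM in shMAGED2 and 26.1 ± 0.72 CPM in shCON, and BUB1B, which binds CDC20 directly, 122 ± 12.5 CPM in shMAGED2 and 36.6 ± 1.59 CPM in shCON (SD, n = 2 each; edgeR adjusted p = 0.000839 to 0.000949). BUB3 (log2 change 0.27, adjusted p = 0.182) and MAD2L1BP (−0.04, adjusted p = 0.9) did not pass; both were picked with their values in view. Of 18 genes for proteins that the APC/C destroys, all 18 rose (median 1.49), among them the kinases AURKA (178 ± 3.60 CPM in shMAGED2 and 53.9 ± 2.12 CPM in shCON) and PLK1 (176 ± 24.7 CPM in shMAGED2 and 43.9 ± 0.66 CPM in shCON) and the cyclin CCNA2 (146 ± 4.40 CPM in shMAGED2 and 44.5 ± 1.99 CPM in shCON; SD, n = 2 each). With 1 library left out, 16 to 18 of these rose.

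Among 9 tested genes of a mixed list of regulators and relatives of FBXO5 and FZR1, 2 rose and 0 fell (median 0.12), and 1 had a lower value at an unadjusted p under 0.05. FBXO43, an APC/C inhibitor related to FBXO5 and known from meiosis, had 10.2 ± 0.06 CPM in shMAGED2 and 2.33 ± 0.02 CPM in shCON (log2 change 2.13, adjusted p = 0.00223), and CCNF, an F-box cyclin that targets FZR1, had 30.2 ± 2.68 CPM in shMAGED2 and 9.31 ± 0.15 CPM in shCON (1.70, adjusted p = 0.00153; SD, n = 2 each). EVI5, which stabilises FBXO5, changed by −0.33 (adjusted p = 0.111) and passed only without shMAGED2 replicate 2 (adjusted p = 0.0294). Of 9 tested genes of cohesin, the substrate of separase, and its regulators, 4 rose and 0 fell (median 0.49), with 2 rising without either shCON library and 2 in limma on FPKM. The protector of cohesion CDCA5 rose by 1.40 (adjusted p = 0.00234), the ring subunit SMC1A by 0.99 (adjusted p = 0.00472) and RAD21, the subunit that separase cuts, by 0.56 (adjusted p = 0.0162). RAD21 did not pass without shCON replicate 1 (adjusted p = 0.17) or shCON replicate 2 (0.164), nor in limma on FPKM.

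Partners of PRC1 and ECT2 at the central spindle rose in 11 of 13 cases, with 1 lower (median 1.60), and these counts were the same in each fit with 1 library left out. KIF20A, a kinesin of the central spindle, had 85.6 ± 6.22 CPM in shMAGED2 and 17.6 ± 1.33 CPM in shCON, and KIF4A, the kinesin that binds PRC1, had 87.6 ± 2.14 CPM in shMAGED2 and 25.9 ± 2.00 CPM in shCON (SD, n = 2 each). ARHGAP11A, which inactivates RHOA, rose by 1.46 (SE 0.10, adjusted p = 0.000839). The gene that fell was ARHGEF2, an exchange factor for RHOA bound to microtubules, at 165 ± 21.3 CPM in shMAGED2 against 319 ± 5.82 CPM in shCON (log2 change −0.95, adjusted p = 0.00424). RACGAP1 and KIF23, the pair that recruits ECT2, rose by 1.43 and 1.62 (adjusted p = 0.00128 and 0.000839); this pair was picked with its values in view.

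Of 19 genes of the contractile ring and septins, 9 rose and 0 fell (median 0.45), and the smallest p-values were those of the formins DIAPH1 (209 ± 8.23 CPM in shMAGED2 and 112 ± 5.96 CPM in shCON) and DIAPH3 (34.9 ± 6.31 CPM in shMAGED2 and 12.6 ± 0.38 CPM in shCON) and the septin SEPT9 (370.4 ± 29.3 CPM in shMAGED2 and 213 ± 4.93 CPM in shCON; SD, n = 2 each). How many of the 19 rose depended on the library left out, as it did over all genes tested. SEPT9 missed the threshold without shCON replicate 1, with a log2 change of 0.77. RHOA, the target of ECT2, changed by 0.26 (adjusted p = 0.069; picked with its value in view). Of 16 genes of abscission, the final cut made by the ESCRT machinery, 0 rose and 0 fell by edgeR (median 0.02). Their changes ran from −0.45 to 0.34, and those with the smallest p were CHMP1B (−0.41, adjusted p = 0.0604), CHMP4B (0.34, adjusted p = 0.0866) and CHMP7 (0.26, adjusted p = 0.111). An unadjusted p under 0.05 was found for 2 higher and 2 lower of the 16. CHMP1B was called lower by DESeq2, with other filters, with upper-quartile scaling and with the replicate block. How many of the 16 passed depended on the library left out, as it did over all genes tested.

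Of 19 phosphatases that undo mitotic phosphorylation and their regulators, 6 were higher and 2 lower (median 0.26). Over all genes tested 12.3% were higher and 11.6% lower, so the lower calls are near the general share. MASTL, the kinase that holds the phosphatase PP2A in check during mitosis, rose by 0.97 (adjusted p = 0.00534), its substrate ARPP19 by 0.57 (adjusted p = 0.0116) and the catalytic subunit PPP1CC by 0.59 (adjusted p = 0.00766). CDC14B and PPP2R5A fell by 0.72 and 0.53 on the log2 scale (adjusted p = 0.0243 and 0.025). How many of the 19 passed depended on the library left out, as it did over all genes tested. ARPP19, PPP1CC and PPP2R5A missed the threshold without either shCON library, and CDC14B without shCON replicate 2. Of 15 genes of the DREAM and MuvB complexes and NF-Y, which bind CHR and CCAAT letters, 6 rose and 1 fell (median 0.34). MYBL2, which joins MuvB in the activating complex, had 164 ± 31.9 CPM in shMAGED2 and 39.0 ± 0.31 CPM in shCON, and FOXM1, its partner in G2, had 147 ± 28.8 CPM in shMAGED2 and 42.0 ± 1.95 CPM in shCON (SD, n = 2 each). The pocket protein RBL1 rose by 1.10 (adjusted p = 0.00179), and RBL2 fell by 0.35 (adjusted p = 0.037), a call that ended in limma on FPKM, with the replicate block (adjusted p = 0.0739) and without either shCON library. The NF-Y subunits NFYA, NFYB and NFYC changed by 0.07, −0.03 and 0.02 and did not pass (adjusted p = 0.752 to 0.935; picked with their values in view).

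**Figure D5:**
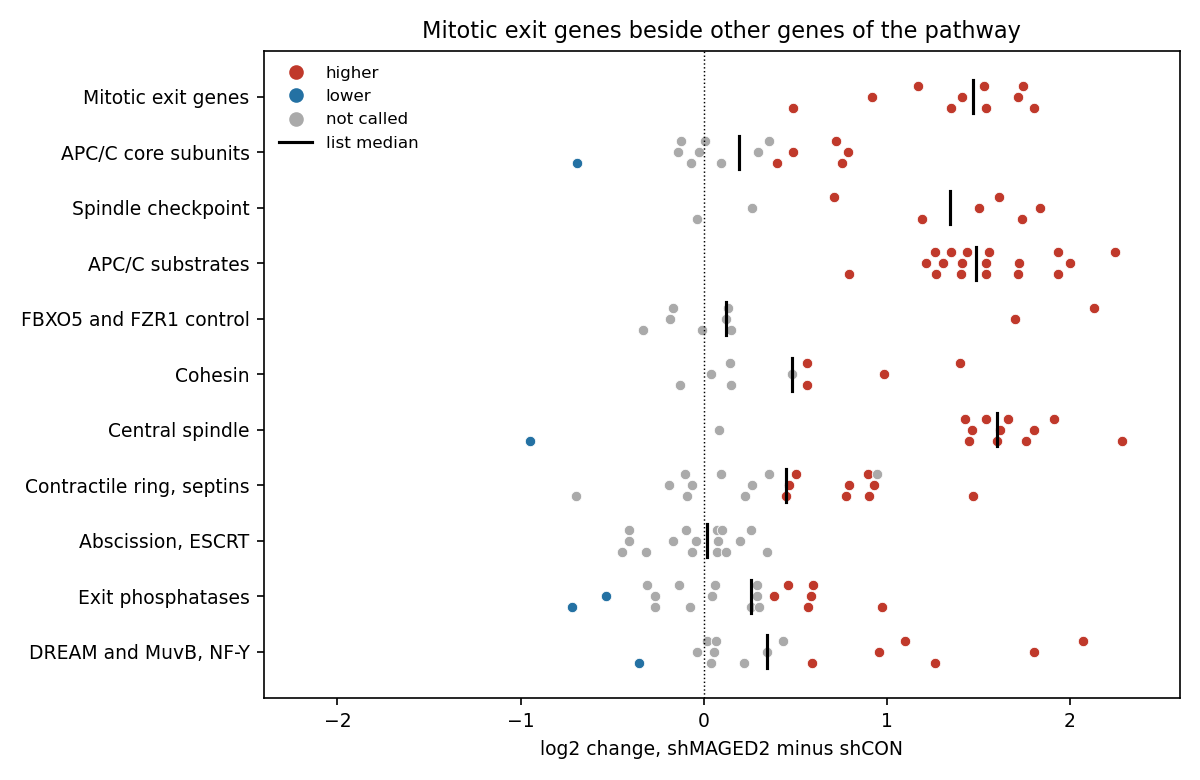
Log2 change, shMAGED2 minus shCON, of the mitotic exit genes (top line) and of tested genes in 10 lists of their pathway and partners; each point is a gene, red for higher, blue for lower and grey for not called by edgeR, and vertical bars are list medians. Medians are 1.47 for the mitotic exit genes, 1.49 for APC/C substrates and 1.60 for the central spindle, against 0.20 for APC/C core subunits and 0.02 for abscission.

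Over the 4 libraries, the 5 other genes whose centred log2 CPM came closest to the median profile of the 10 members, among 11223 with at least 5 CPM on average, were KIF14, MCM4, STMN1, HMGB2 and ARHGAP11A, at Euclidean distances of 0.07 to 0.10. Among the members the distance to that profile was smallest for PRC1 (0.24) and largest for FZR1 (0.95). With 4 libraries in 2 groups, this likeness is little more than a similar size of change. KIF14, a kinesin of cytokinesis, had 65.9 ± 0.14 CPM in shMAGED2 and 24.2 ± 0.34 CPM in shCON (SD, n = 2 each; log2 change 1.45).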

How the data were processed

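RNA-seq of 2 shMAGED2 and 2 shCON libraries was analysed from 2 deposited tables. One, as deposited, gives raw counts for each gene, and the other FPKM values as the authors deposited them, which are scaled to transcript length and depth. HISAT2, StringTie and SAMtools on hg38 were used per the submitters' processing notes; the annotation, the strand setting and the handling of multiply mapping reads were not given in the sources used here. Columns were matched to samples by their descriptions, and groups were read from the titles.

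Counts were filtered with filterByExpr, scaled by TMM and fitted over all genes with edgeR 4.0.16 (robust quasi-likelihood, group as the only term, two-sided, R 4.3.3), with Benjamini-Hochberg adjustment over 15293 genes and a threshold of 0.05. Standard errors were derived from the F statistic. CPM are relative to TMM-scaled library totals. Alternatives used limma 3.58.1 (pseudocounts 1 and 0.1 on FPKM, which understate changes of low genes) and DESeq2 1.42.0.

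Members and lists were chosen with earlier results of these data known. Named are all members, the 3 genes of each list with the smallest p, those called against their list's direction, and the 5 nearest genes; any other gene, apart from markers given as a check of the cells, was picked with its values in view. Motifs were searched in RefSeq start windows and gene coordinates taken from GENCODE 29. Degron letters of the proteins, listed as a planned description, were not analysed here. Same-numbered libraries did not deviate together, so numbers were not taken as pairs.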

Additional observations from a re-analysis of the deposited data

How the results depend on the processing

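The 10 members were higher in every alternative, and 9 to 10 passed: FZR1 did not pass with library size scaling alone, in limma on FPKM or without either shCON library. Over all genes, 3649 calls (1874 higher, 1775 lower) became 1640 (763 higher, 877 lower) in limma on unfiltered FPKM with a pseudocount of 1. On filtered FPKM, 1296 were higher and 1503 lower with a pseudocount of 1, and 1244 higher and 1432 lower with 0.1. Leaving out 1 library gave 1100 to 7447 calls, 567 to 3725 higher and 533 to 3722 lower, with the fewest without shCON replicate 1 and the most without shMAGED2 replicate 2. Such a fit takes its spread from the remaining pair and assumes that the lone library varies like it. In the 10 pathway lists 67 genes were higher and 5 lower, against 44 to 87 and 1 to 20 with 1 library left out, and 1 was lower in unfiltered FPKM. The PTTG1 to ESPL1 ratio changed sign, at 0.053 without shCON replicate 1 and −0.30 without shCON replicate 2. Same-numbered libraries correlated at −0.02 in their deviations, which cannot show whether they were prepared together. With the replicate block 3336 genes were called (1706 higher, 1630 lower), all 10 members among them. Where no cause is given above, the cause was not tested.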
